A study of Sus scrofa with 4 samples.

Results

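A group of 172 gene models of the Tibetan pig (Sus scrofa) was read at a high level in liver and in kidney and at a low level in heart and in lung. They were picked from 18367 gene models with at least 1 read, in 4 RNA sequencing libraries that the series title describes as material for gene annotation. Each tissue (heart, liver, lung and kidney, all of the Tibetan breed, with no treatment named) had a single library (1 per tissue). All values therefore describe single libraries, with no replicate error and no p-value. The labels give neither age, sex nor number of animals, and do not say whether the tissues came from the same pig.

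Liver and kidney are both organs of whole-body metabolism. Background knowledge of mammals holds that they are the main sites of glucose synthesis from amino acids and lactate, and that both break down amino acids, are rich in peroxisomes, and carry transporters and conjugating enzymes that clear drugs and organic anions from the blood. Heart muscle and lung do not have these roles to the same degree. The files do not pair the model identifiers (evm.model.scaffold, a scaffold number and a model number) with gene names, and 0 of the 18367 matched the reference tables of pig genes, so it is not known which of these functions the 172 models serve. For the same reason the tissue labels could not be checked against marker genes, no sequence is shown, and only a few models are named.

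Levels are given as RPKM, a read count divided by the length of the model and by the depth of the library, so they can be set side by side between models. A model was chosen when both liver and kidney reached 10 RPKM and when the lower of them, with 1 RPKM added, was at least 5 times the higher of heart and lung, also with 1 added. Of 5148 models at 10 RPKM or more in liver and kidney (33.5% of the 15357 models that reached 1 RPKM in at least 1 library), 231 met this, or 1.50% of the 15357. Another 50 were dropped because liver alone (28 models) or kidney alone (22 models) stood at least 5-fold above the 3 other libraries, 8 because they were 250 bases long or shorter, and 1 because it lay on 1 of 3 scaffolds left out, while none reached the upper limit of 10000 bases. The 172 left were 1.12% of the 15357, and 3.34% of the 5148. The rule used all 4 libraries: that liver and kidney exceeded heart and lung is therefore the choice itself and not a result, and the levels and folds against heart and lung are given as a description.

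Together the models took 6.84% of liver reads (exact Clopper-Pearson 95% interval 6.82 to 6.87) and 8.22% of kidney reads (8.20 to 8.25). They took 0.311% of lung reads (0.307 to 0.314) and 0.164% of heart reads (0.162 to 0.166). These intervals, like the others below, cover counting error only. Library totals ran from 4090775 reads in liver to 14062622 in heart. In liver no chosen model had fewer than 23 reads and the median was 764.5, and in kidney the lowest was 60 and the median 1238.5. In bulk tissue, fewer cells of a type and less RNA per cell cannot be told apart.

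The levels spanned more than the thresholds required. In liver the models ran from 10.8 to 3702 RPKM with a median of 143, and in kidney from 11.8 to 9281 with a median of 196. In lung they ran from 0 to 435 RPKM with a median of 3.40, and in heart from 0 to 237 with a median of 0.749. The smaller of the values in liver and kidney was at 100 RPKM or more in 97 models (56.4%) and under 20 in 14 (8.14%), so most members were well above the 10 RPKM limit. Among the 100 highest models of a library by RPKM, 16 in liver and 15 in kidney belonged to the group, and none in heart or lung. The choice favours high levels in liver and kidney over those in heart and lung, so these counts partly follow from it. Reads were concentrated: the 10 models of most reads held 39.6% of the group's liver reads and 38.8% of its kidney reads, and 17 models held 50% in each of these libraries.

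**Figure D1:**
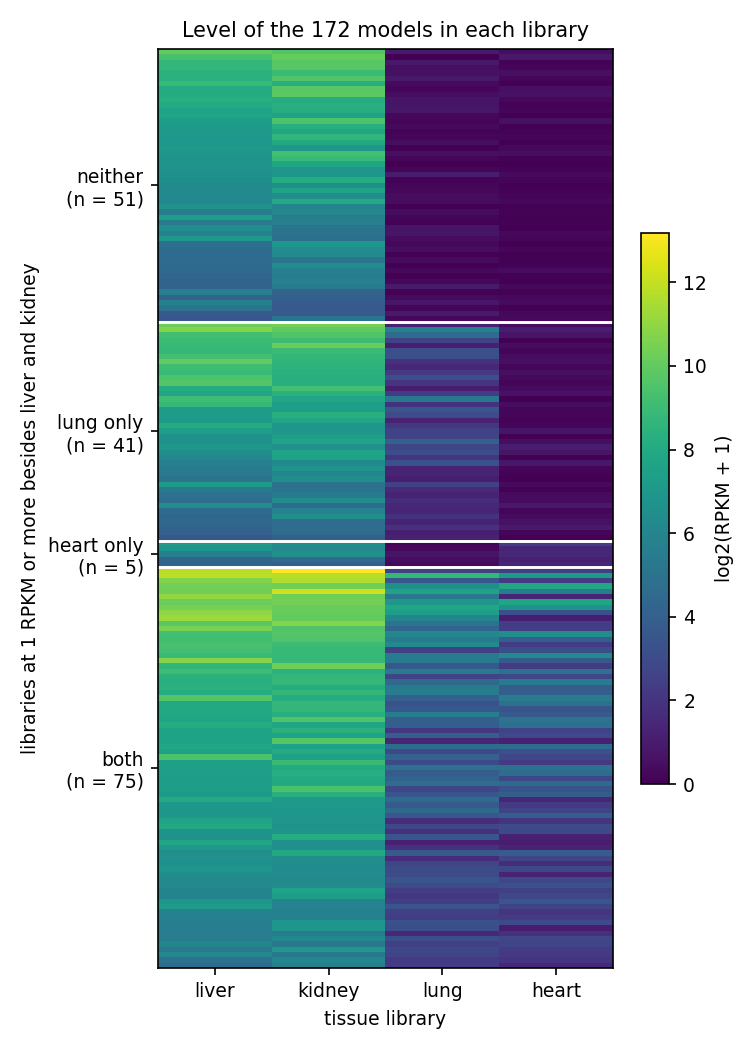
Level of each of the 172 models (rows) in the liver, kidney, lung and heart libraries (columns), as log2(RPKM + 1) by colour; rows are grouped by whether heart or lung reached 1 RPKM and sorted within a group by the smaller of their values in liver and kidney. The 75 models with both heart and lung at 1 RPKM or more include the highest liver and kidney values, and the 51 with neither stay dark in both right-hand columns.

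Ranked by the smaller of its values in liver and kidney, the first member was evm.model.scaffold44125.6, of 1095 bases. It stood at 3631 RPKM in liver (exact Poisson interval 3576 to 3687), 9281 in kidney (9204 to 9358), 4.95 in lung (3.65 to 6.56) and 4.68 in heart (3.66 to 5.89). It was the model of rank 5 in the kidney library and of rank 26 in liver, and its lung and heart intervals overlapped. The second was evm.model.scaffold12109.5, of 1584 bases, at 3702 RPKM in liver (3656 to 3750), 3418 in kidney (3380 to 3457.5), 435 in lung (424 to 446) and 146 in heart (141 to 152). Liver and kidney were nearly level for this model as deposited, at -0.12 for kidney minus liver in log2(RPKM + 1), but not after median-ratio scaling, at -1.16. It was also well read in lung, where it ranked 223. The lower of liver and kidney was 610-fold above the higher of heart and lung for the first and 7.84-fold for the second, on the RPKM + 1 scale.

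In all, 11 models had 1000 RPKM or more in both liver and kidney, and they held 34.6% of the group's liver reads and 36.1% of its kidney reads. Of these 11, 6 were above 100 RPKM in heart or lung, 2 were below 10 RPKM in both, and 6 passed the choice with a fold under 10, the lowest at 5.03. High level in liver and kidney therefore came with levels in the remaining tissues from below 10 RPKM to above 100 RPKM.

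Folds over the remaining tissues had a median of 16.1 on the RPKM + 1 scale. They reached 10 in 108 models, 50 in 42 and 100 in 26. For 153 of the 172 the counting interval of the ratio between the lower of liver and kidney and the higher of heart and lung lay wholly above 5. The other 19 lay close to the limit, with a median fold of 5.22 and none above 6.55. Members were chosen by these same counts, so every ratio is above 5 by the choice. The intervals describe the distance from the limit and give no separate support for it. The members just inside were evm.model.scaffold9623.6, at 48.7 RPKM in liver, 115 in kidney, 8.94 in lung and 6.45 in heart (fold 5.01), and evm.model.scaffold1089.13, at 158 in liver, 55.6 in kidney, 10.3 in lung and 5.57 in heart (fold 5.01). Just outside were evm.model.scaffold420.1, at 51.5 in liver, 33.2 in kidney, 2.17 in lung and 5.91 in heart (fold 4.95), and evm.model.scaffold48107.2, at 336 in liver, 670.3 in kidney, 67.5 in lung and 15.7 in heart (fold 4.92). The limit thus divides models with nearly the same fold.

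**Figure D2:**
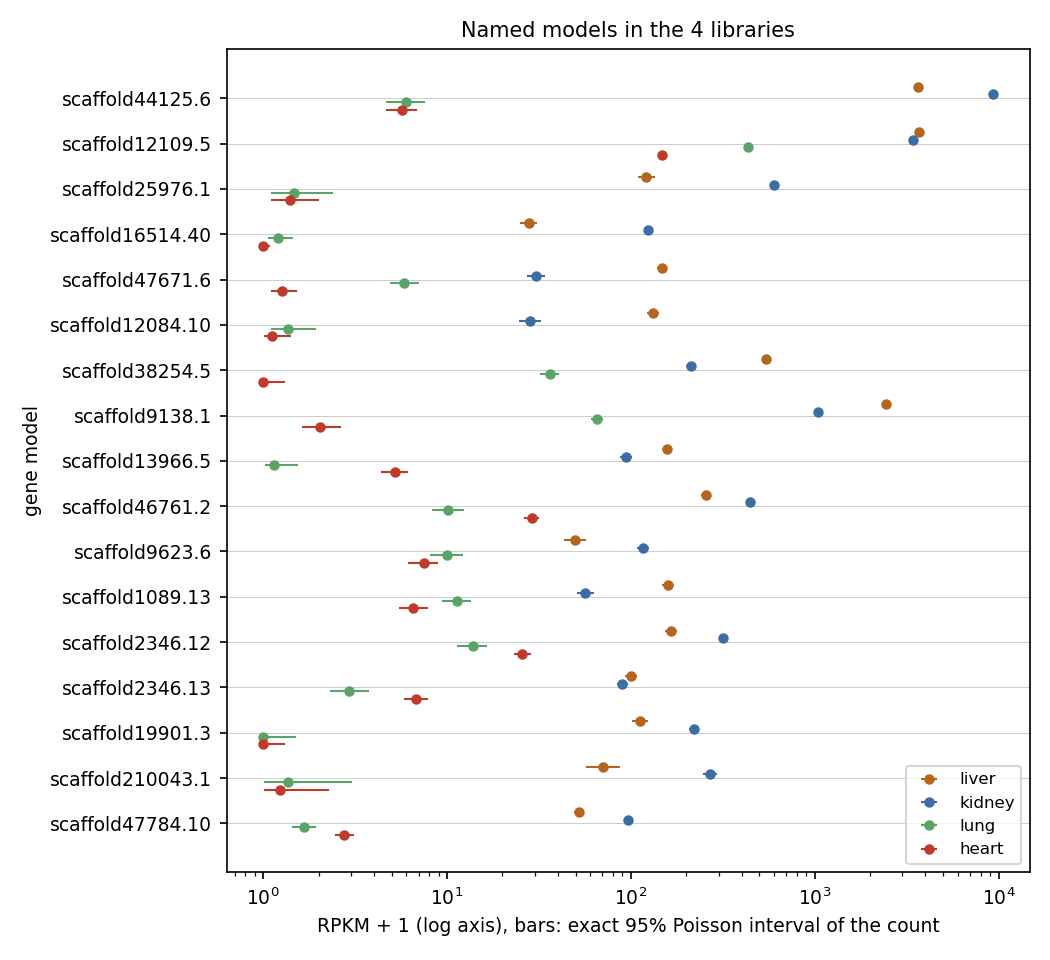
RPKM + 1 on a log axis in each of the 4 libraries for the named members of the group, with exact 95% Poisson intervals of the counts as bars. Liver and kidney stand apart from lung and heart in every row, as the choice requires, while the distance runs from 5.01-fold for scaffold9623.6 and scaffold1089.13 to 610-fold for scaffold44125.6.

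Heart and lung divided the members into 4 sets at 1 RPKM. Both were below 1 RPKM for 51 models (29.7%), lung alone reached it for 41 (23.8%), heart alone for 5 (2.91%) and both for 75 (43.6%). Models below 1 RPKM in heart and lung had a median liver level of 103 RPKM and a median kidney level of 123. Where both reached 1 RPKM, the medians were 200.1 in liver and 266 in kidney, with 10.8 in lung and 6.20 in heart. Models at 1 RPKM in lung alone lay between, at 146 in liver and 169 in kidney. Since the fold rule allows more reads in heart and lung as liver and kidney rise, part of this order follows from the choice.

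A few members had no read at all outside liver and kidney in 1 of the other libraries. There were 13 with 0 reads in heart and 6 with 0 in lung, among them 1 with 0 in both. Of all 18367 models, 16522 had reads in heart and 16921 in lung, so a count of 0 was not particular to the group. For a model of the group's median length, the 3 counts used as the floor equal 0.173 RPKM in heart and 0.274 in lung. With a count of 0 set to the floor of its model and library, the smallest fold of the lower of liver and kidney in these members was 40.1 over heart and 46.9 over lung. These folds leave out the counting error of liver and kidney. The counts of 0 depend on depth: when every library was thinned to the 4090775 reads of liver, the same 172 models had 42 at 0 in heart and 14 in lung, and none in kidney.

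The model without reads in heart and lung was evm.model.scaffold19901.3, of 824 bases. Liver held 374 reads, or 111 RPKM (99.99 to 123), and kidney 995 reads, or 220.1 RPKM (207 to 234). Its upper 95% limits were 0.318 RPKM in heart and 0.506 in lung. With heart and lung set to the floor of 3 counts per library, liver was 429-fold higher than heart and 269.8-fold higher than lung. Kidney was 850.1-fold and 535-fold higher. The floor leaves out the counting error of liver and kidney, and the exact 95% lower limit of liver over heart was 347-fold. These folds are set by depth and do not rank heart and lung.

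Within the group, kidney was above liver in 107 models and liver above kidney in 65. The choice did not order these tissues, but it capped their difference near 5-fold and asked for a minimum in the lower of them, so this is a description as well. The median kidney minus liver difference was 0.33 in log2(RPKM + 1), with quartiles of -0.42 and 1.11. By counting error, the interval of the kidney to liver ratio lay wholly above 1 in 95 models and wholly below 1 in 55, and it held 1 in 22. Such intervals were not counted over all models. Kidney was above liver in 62.2% of members, against 80.5% of all 15357 models and 84.4% of the 5148 at 10 RPKM in both tissues.

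That lean towards kidney was smaller than the lean of the libraries as a whole. Over all 15357 models the median difference was 0.87, and over the 5148 at 10 RPKM in both tissues it was 0.82. Kidney was at least 2-fold above liver in 50 members (29.1%), against 44.4% of all models and 39.6% of the 5148. Liver was at least 2-fold above kidney in 21 members (12.2%), against 6.19% of all models and 4.72% of the 5148. The sign of the lean rests on the scaling: with each library divided by its median ratio to the geometric mean, the median of the same 172 models was -0.71, with 7 models at least 2-fold higher in kidney and 68 at least 2-fold higher in liver, while the median of all models fell from 0.87 to 0.06. Relative to the median model, the group lay at -0.54 as deposited and at -0.77 after this scaling. The choice caps the difference around equal levels and not around the median model, so this offset is partly set by the choice. For the 5148 models, which have no cap, it was -0.05 and -0.26.

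**Figure D3:**
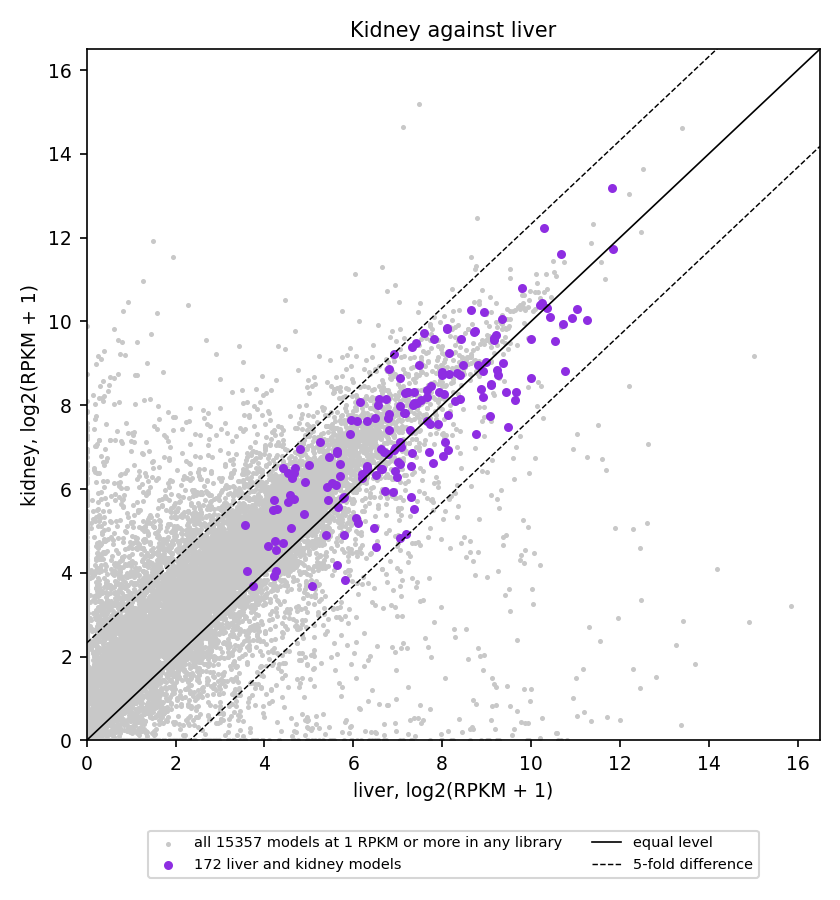
Kidney against liver level, both as log2(RPKM + 1), for the 15357 models that reached 1 RPKM anywhere (grey) and the 172 members (purple), with lines for equal levels (solid) and for 5-fold differences (dashed). The members lie between the dashed lines, as the choice requires, and 107 of them are above the solid line.

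The models leaning furthest to kidney were evm.model.scaffold25976.1 and evm.model.scaffold16514.40. The first had 599.8 RPKM in kidney (576 to 625) and 121 in liver (108 to 134), with 0.476 in lung and 0.400 in heart, a kidney to liver ratio of 4.98 (4.45 to 5.58). The second had 123 RPKM in kidney (117 to 128) and 26.8 in liver (24.0 to 30.0), with 0.198 in lung and 0 reads in heart, a ratio of 4.57 (4.05 to 5.16). Both were below 1 RPKM in heart and lung, and the first was the member nearest to the limit at which a model counts as high in kidney alone.

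Leaning furthest to liver were evm.model.scaffold47671.6 and evm.model.scaffold12084.10. The first had 146 RPKM in liver (138 to 155) and 29.5 in kidney (26.3 to 33.0), with 4.85 in lung and 0.258 in heart, a liver to kidney ratio of 4.94 (4.36 to 5.62). It also stood close to the limit over lung, with a fold of 5.22. The second had 131 RPKM in liver (121 to 142) and 27.4 in kidney (23.6 to 31.6), with 0.365 in lung and 0.115 in heart, a liver to kidney ratio of 4.80 (4.07 to 5.67). For these 4 models the direction was the same with median-ratio scaling.

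Further out on both sides lay the 50 models dropped for standing high in 1 tissue. The 28 of liver alone had medians of 779 RPKM in liver and 38.5 in kidney, and the 22 of kidney alone had medians of 369 in kidney and 34.5 in liver.

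The kidney minus liver difference also varied with the level left in heart and lung. Its median was 0.68 for the 51 models below 1 RPKM in both, 0.42 for the 41 at 1 RPKM in lung alone and 0.05 for the 75 at 1 RPKM in both. Among the 51, kidney was at least 2-fold above liver in 22 (43.1%) and liver above kidney in 6 (11.8%), against 44.4% and 6.19% of all models. Among the 41 these counts were 10 (24.4%) and 8 (19.5%), and among the 75 they were 18 (24.0%) and 7 (9.33%). The kidney shares fell in the order of the medians, though those of the 41 and the 75 were nearly equal, and the liver shares did not follow it. With median-ratio scaling the medians of the 3 sets became -0.36, -0.61 and -0.98, so their order was kept and their signs were not. The 5 models at 1 RPKM in heart alone had a median of -0.31 as deposited, from too few models to place. Members in these sets also differed in level and length, with median lengths of 1383, 1272 and 1176 bases, and the part of level and length in the order was not tested.

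**Figure D4:**
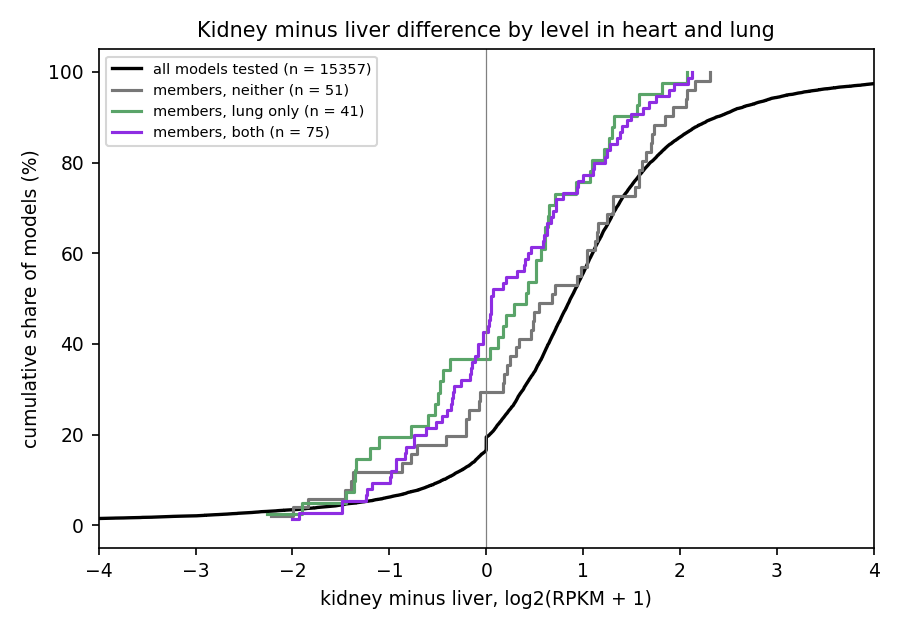
Cumulative share of models (%) by the kidney minus liver difference in log2(RPKM + 1), for all 15357 models and for members grouped by which of heart and lung reached 1 RPKM (51 with neither, 41 with lung only, 75 with both; the 5 with heart only are not drawn). The curve of the 75 crosses the middle near 0.05, that of the 51 near 0.68 and that of all models near 0.87.

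Between the remaining tissues, lung was more often above heart. Lung was higher in 125 members (72.7%) and heart in 46, with 1 model at 0 in both, and over all models lung was above heart in 68.8%. The median lung minus heart difference was 0.45 in log2(RPKM + 1) against 0.66 over all models, and 0.20 against 0.18 with median-ratio scaling. The group thus lay below the median of all models under the first scaling and close to it under the second. Members were lower in lung and heart (medians of 3.40 and 0.749 RPKM) than all models (14.5 and 8.75), so the added 1 RPKM shrinks their difference more. With 0.1 RPKM added, the median of the 176 models then chosen was 1.10, with no value over all models beside it. Lung was at least 2-fold above heart in 59 members (34.3%; 39.1% of all models) and heart above lung in 10 (5.81%; 13.1% of all models). Both shares are held down by the 51 models under 1 RPKM, where the added 1 RPKM leaves no room for a 2-fold difference. As a plain ratio over the 154 members with reads in both libraries, the median was 2.57, and it was 2.65 over 171 members with a count of 0 set to 3 counts. The interval of this ratio lay wholly above 1 in 78 of the 154, wholly below 1 in 24, and held 1 in 52. Neither the plain ratio nor its intervals were computed over all models.

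Of the 4 possible orders of the libraries, kidney, liver, lung, heart was the most frequent, with 76 models (44.2%). The order liver, kidney, lung, heart followed with 49 (28.5%), then kidney, liver, heart, lung with 31 (18.0%, including the model at 0 in both) and liver, kidney, heart, lung with 16 (9.30%). These counts hold for the values as deposited. With median-ratio scaling the kidney minus liver median of the same models was -0.71, and the orders were not counted. Nor were they counted over all models, where kidney was above liver in 80.5% and lung above heart in 68.8%.

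**Figure D5:**
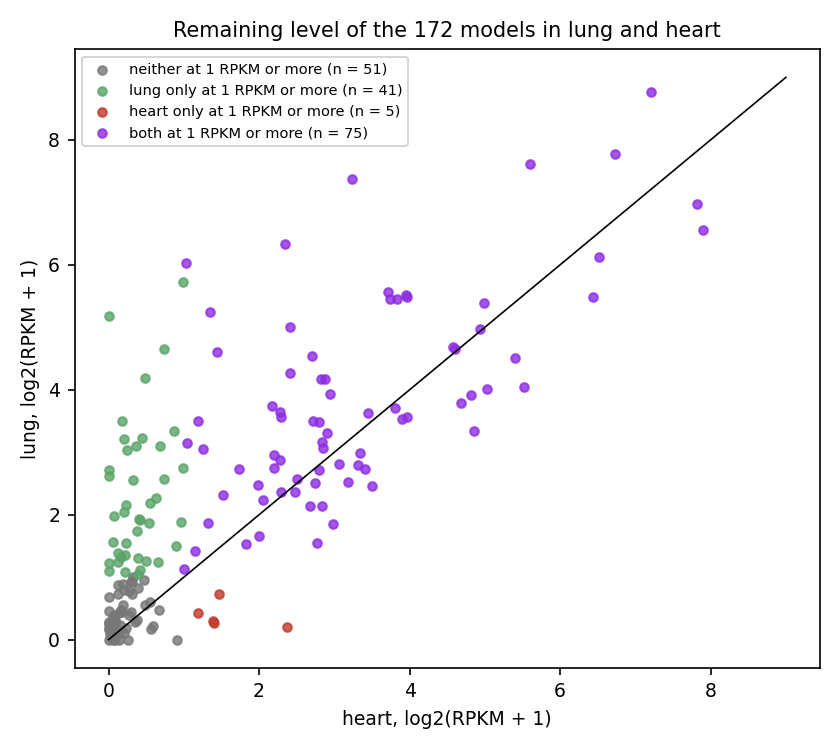
Lung against heart level of the 172 members, both as log2(RPKM + 1), coloured by which of the libraries reached 1 RPKM, with a line for equal levels. More members lie above the line (125) than below it (46), and the member furthest above it has 0 reads in heart.

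On the RPKM + 1 scale, the members furthest to the lung side were evm.model.scaffold38254.5 and evm.model.scaffold9138.1. The first had 541 RPKM in liver (517 to 566), 212 in kidney (199 to 226) and 35.1 in lung (31.0 to 39.6), with 266 reads in lung and 0 in heart (upper limit 0.307 RPKM). The second had 2453 RPKM in liver (2410 to 2496), 1041 in kidney (1017 to 1066), 64.2 in lung (59.5 to 69.1) and 1.04 in heart (0.617 to 1.64), a lung to heart ratio of 61.7 (38.7 to 105). In both models liver was the highest library, above kidney by a ratio of 2.55 (2.36 to 2.75) in the first and 2.36 (2.29 to 2.43) in the second. As a plain ratio between libraries with reads, lung was furthest above heart in evm.model.scaffold41887.7, at 81.5 (27.4 to 399.7) from 154 reads in lung and 3 in heart, a model chosen after its values were seen.

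On the heart side stood evm.model.scaffold13966.5 and evm.model.scaffold46761.2. The first had 156 RPKM in liver (146 to 166), 93.0 in kidney (86.6 to 99.8), 4.19 in heart (3.37 to 5.16) and 0.150 in lung (0.0181 to 0.541), a heart to lung ratio of 28.0 (7.53 to 235) from 89 reads in heart and 2 in lung. The second had 444 RPKM in kidney (427 to 461), 255 in liver (240.1 to 270.5), 28.0 in heart (25.3 to 30.8) and 9.14 in lung (7.30 to 11.3), a heart to lung ratio of 3.06 (2.42 to 3.91). Their intervals in heart and lung did not overlap.

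Across the 172 members, liver and kidney levels had a Pearson correlation of 0.83 and a Spearman correlation of 0.84 in log2(RPKM + 1), and heart and lung 0.76 and 0.74. Over the 5148 models at 10 RPKM in liver and kidney these values were 0.74 and 0.70, and 0.63 and 0.58. The points share libraries and depth and are not independent, and the choice caps the difference between liver and kidney.

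Length was not part of the choice apart from its limits. The members had a median of 1234.5 bases, with quartiles of 855 and 1606.5, between that of all 15357 models (1314, quartiles 765 and 2172) and that of the 5148 (1143, quartiles 684 and 1836). Lengths were multiples of 3 in 87.8% of members and 90.0% of all models. By length the lower of liver and kidney had a median of 169 RPKM in the 33 members under 750 bases, 139 in the 83 from 750 to under 1500 bases and 93.0 in the 56 of 1500 bases or more. The same order, at lower levels, held for the 5148 models, with medians of 33.8, 24.95 and 19.8. Kidney minus liver medians in these length classes were 0.21, 0.51 and 0.17, with no steady order.

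The shortest member, evm.model.scaffold210043.1 of 309 bases, had 69.6 RPKM in liver (55.8 to 85.8), 268 in kidney (244 to 294), and 1 read each in lung and heart. The longest, evm.model.scaffold47784.10 of 4965 bases, had 51.3 RPKM in liver (48.2 to 54.5), 95.6 in kidney (91.9 to 99.3), 0.660 in lung (0.442 to 0.948) and 1.76 in heart (1.46 to 2.10). Both were higher in kidney than in liver as deposited, and the kidney minus liver difference of the longest was -0.14 in log2 after median-ratio scaling.

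Members were spread over the assembly. They lay on 157 scaffolds, 15 of which held 2 members and none more, so no scaffold stood out by number. On 4 of the 15 the model numbers were at most 5 apart, and the median distance was 9 numbers. Only 1 pair had consecutive numbers, evm.model.scaffold2346.12 and evm.model.scaffold2346.13. The first had 318 RPKM in kidney (302 to 334), 164 in liver (151 to 178), 24.7 in heart (22.0 to 27.6) and 12.8 in lung (10.4 to 15.5). The second had 99.1 RPKM in liver (91.8 to 107), 88.6 in kidney (82.7 to 94.9), 5.79 in heart (4.86 to 6.84) and 1.93 in lung (1.29 to 2.78). In both, heart was above lung, with ratios of 1.93 (1.54 to 2.44) and 3.00 (2.00 to 4.64), the less frequent order in the group. The files hold no coordinates, so whether such a pair are separate genes or parts of 1 gene cannot be told. The spread is partly set by the choice, which left out short models and 3 scaffolds. With extreme lengths and these scaffolds kept, 5 members had consecutive numbers, against 2. The spread of other sets of models of this size is not given.

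Models numbered next to a member are described here without the members among them, so whether they share its pattern is largely set by the choice. Of 243 such models that were not members, 213 reached 1 RPKM somewhere, with medians of 6.61 RPKM in liver, 15.9 in kidney, 13.6 in lung and 7.80 in heart, against 5.20, 12.1, 14.7 and 8.84 over the 15185 models that were not members. Among the 213, 79 (37.1%) were at 10 RPKM in liver and kidney, against 32.8%. The rule for liver and kidney before any drop was met by 5 (2.35%) against 0.389%, the rule for liver alone by 9 (4.23%) against 1.89%, and that for kidney alone by 8 (3.76%) against 2.42%. Only models removed by a drop could meet the rule for liver and kidney here. The counts of neighbours are small, and whether neighbouring models share reads or a gene was not tested.

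The same choice applied to other pairs of tissues gave fewer models and lower levels. Heart and lung gave 96 models (0.625% of the 15357) and lung and kidney 98 (0.638%). Liver and lung gave 29 (0.189%), heart and kidney 22 (0.143%) and heart and liver 7 (0.0456%). The lower values of heart and lung models had a median of 31.3 RPKM and those of lung and kidney models 27.5, against 119.7 for liver and kidney, and they reached 100 RPKM in 12.5% and 12.2% of models, against 56.4%. Liver and lung models were closer, with a median of 51.0 RPKM and 34.5% at 100 RPKM, as were heart and kidney models, with 45.9 RPKM and 31.8%, while the 7 heart and liver models had 31.7 RPKM and 14.3%. A fold of 50 or more over the remaining tissues was seen in 42 liver and kidney models (24.4%), 4 lung and kidney models (4.08%), 3 liver and lung models (10.3%) and none of the other 3 pairs. On the RPKM + 1 scale such a fold needs a lower value near 50 RPKM or above. Pairs with lower levels thus had less room for it, and these shares partly repeat the difference in level. With median-ratio scaling and models chosen again, the medians of the lower value were 112 for 206 liver and kidney models, 28.8 for 77 heart and lung models and 24.4 for 57 lung and kidney models. They were 54.6 for 35 liver and lung models, 34.4 for 19 heart and kidney models and 34.2 for 11 heart and liver models. The shares at 100 RPKM were then 52.4%, 6.49%, 10.5%, 28.6%, 21.1% and 36.4%, in the same order of pairs. With 1 library per tissue these differences between pairs have no test.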

How the data were processed

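Per the labels' protocols, 1 library per tissue was built with an Illumina TruSeq RNA kit from RNA isolated with Trizol. TopHat is named in the submitters' processing notes without a version. Which counter, strand setting, rule for reads with several matches, build or annotation was used is not given in the sources used here, so models with near-identical copies or overlapping genes are uncertain. Per the file headers, the authors deposited whole read counts per gene model and an RPKM, with model length and library total. Counts summed to the totals. The deposited RPKM matched count over length and total within a relative tolerance of 1e-09. Models absent from a table count as 0 reads.

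Totals were 4090775 reads in liver, 5486480 in kidney, 8853076 in lung and 14062622 in heart. For a model of 1278 bases, the median, 1 read equals 0.191, 0.143, 0.0884 and 0.0556 RPKM.

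With 1 library per tissue no test was run. Intervals are exact at 95%: Poisson for an RPKM, Clopper-Pearson for shares of reads and for ratios of 2 counts. Folds and differences use RPKM + 1, which understates the change of low models. Ratios given with an interval use RPKM without the added 1. The floor for 0 reads was 3 counts per library.

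Members, rules and alternatives were chosen with earlier results of these data known. Named models are the extremes of level, of the kidney to liver and lung to heart differences and of length, those next to the limits, those with consecutive numbers and those without reads in heart and lung. The choice rule and the ratio interval were run on simulated counts with counting error only. No difference between liver and kidney was planted, so the drops of models high in 1 tissue were not put to a test. The software was scipy 1.17.1, numpy 2.4.6, pandas 2.3.3 and matplotlib 3.10.9 under Python 3.11.15.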

Additional observations from a re-analysis of the deposited data

How the results depend on the processing

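No paired analysis was possible because only 1 library per tissue was made, and no library could be left out. The number of members stayed within 1.5 times of 172 under all 11 alternatives, from 124 (10-fold minimum) to 222 (3-fold minimum). Median-ratio scaling with members kept held 172 by construction. The 50 RPKM minimum and the models listed in all 4 files could only lose members. Membership moved: median-ratio scaling with members chosen again gave 206 models, 149 of them in common. The 3-fold and 10-fold minima kept 145 and 108 of the 172. The fold minimum was changed at once in the choice and in the drop of models high in 1 tissue, so a lower minimum also loses members and a higher one also gains some. Of the 23 members lost under median-ratio scaling, 16 then met the rule for liver alone. Thinning raised the counts of 0 reads in heart and lung, which therefore depend on depth. Where a cause does not follow from the alternative's own construction, the cause was not tested.

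A 3-fold minimum gave 7.38% of liver, 8.48% of kidney, 0.322% of heart and 0.546% of lung reads, a kidney minus liver median of 0.16 and 6 members with consecutive numbers. A 10-fold minimum gave 5.02%, 6.15%, 0.0251% and 0.0713% of these reads and a lung minus heart median of 0.33. A 50 RPKM minimum gave 6.56%, 7.86%, 0.159% and 0.300%, a kidney minus liver median of 0.21, 31 models higher in kidney and 13 higher in liver at 2-fold, and 7 at 0 reads in heart. A 1 RPKM minimum gave 4 members with consecutive numbers. Median-ratio scaling with members chosen again gave 6.47%, 9.75%, 0.204% and 0.436%, a kidney minus liver median of -0.17, 26 models higher in kidney and 47 higher in liver at 2-fold, a lung minus heart median of 0.21 and 4 members with consecutive numbers. With members kept it gave medians of -0.71 and 0.20, and 7 and 68 models at 2-fold. TPM-like scaling gave 6.33%, 7.84%, 0.125% and 0.254%. Thinning to the liver total with members chosen again gave 0.167% of heart and 0.315% of lung reads, and 41 and 14 models at 0 reads. Models listed in all 4 files took 6.59% of liver, 7.93% of kidney and 0.306% of lung reads, with 0 at 0 reads in heart and 0 in lung by construction. Keeping extreme lengths and the 3 scaffolds gave 6.99% of liver and 8.38% of kidney reads and 5 members with consecutive numbers. A pseudocount of 0.1 gave a lung minus heart median of 1.10.

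Among 124 log2 differences recomputed for the named models, 87 shifted by less than the distance from the plain log2 ratio to its counting limits, 30 shifted by more and 7 changed sign, all 7 under median-ratio scaling. Kidney minus liver became -0.24 for evm.model.scaffold46761.2, -0.09 for evm.model.scaffold2346.12, -0.06 for evm.model.scaffold19901.3 and -0.14 for evm.model.scaffold47784.10. Lung minus heart became -0.40 for evm.model.scaffold44125.6, -0.09 for evm.model.scaffold25976.1 and -0.09 for evm.model.scaffold9623.6.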
